A study of Mus musculus with 19 samples.

Results

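The diet by time interaction was examined in tumour cells sorted from mice: for each gene, the obese minus lean difference at day 21 minus the obese minus lean difference at day 14. A positive interaction means that obesity went with a higher level at day 21 relative to day 14, and a negative one the opposite. It used 18 of the 19 libraries: 4 lean and 5 obese at day 14, the midpoint, and 4 lean and 5 obese at day 21, the endpoint. All hosts were C57BL/6 mice, lean on chow or obese on a high-fat diet, whose age and sex are not stated in the sources used here. Each received 50000 mCherry-expressing E0771 cells, a mouse mammary carcinoma line, in the mammary fat pad, and each tumour was dissociated and its mCherry-positive cells sorted for RNA sequencing. Lean and obese mice thus share the same implanted line, and the sort rests on 1 fluorescent protein. The lean day 21 library 4 was left out because its counts stop on chromosome 5.

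Total counts ran from 44174080 to 56996252 per library. Of 39017 genes in the table, 16352 passed the filter on low counts, and edgeR's quasi-likelihood test was run on these, with p-values adjusted over all of them. Of 5 epithelial markers (Krt7, Krt8, Krt18, Krt19 and Epcam), only Krt8 passed the filter, and the 5 together summed to 13.5 to 56 CPM (counts scaled by library size). Fibroblast markers, which mesenchymal tumour cells also express, summed to 1140 to 3200 CPM. Macrophage and monocyte markers summed to 157 to 800 CPM, so the sorted libraries held RNA of genes that define leukocytes. Lean day 21 library 1 stood apart: 44.7% of its counts came from the mitochondrial genome, against 17.1% to 24.4% in the other day 21 libraries. Results that rest on it are given with and without it. Fewer cells of a type and less RNA per cell cannot be told apart in such samples.

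Obesity changes the fat pad around a mammary tumour through adipocytes, circulating lipids and inflammatory signals. Interferon-stimulated genes are switched on by STAT and IRF factors. Cholesterol synthesis genes are switched on by SREBP2 when sterols are scarce. Oxidative phosphorylation genes encode the respiratory chain, and replication-dependent histones are made in S phase and lack poly(A) tails. A difference between days therefore asks whether the obese state goes with other programmes early and late in tumour growth.

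The obese minus lean differences were larger at day 14 than at day 21. Their standard deviation over genes was 0.712 log2 units at day 14 and 0.413 at day 21. The absolute difference was larger at day 14 in 77.0% of genes, and the sign was opposite in 9697 of 16352 genes (59.3%). With 1 library left out the share of opposite signs ran from 46.75% (without lean day 21 library 2) to 66.64% (without lean day 21 library 1). At an adjusted p of 0.05, 4825 genes differed at day 14 (2726 higher and 2099 lower in obese hosts, 29.5% of those tested) and 1 at day 21 (0.00612%). The day 14 count fell to 0 when lean library 2 or 3 or obese library 2 or 3 of that day was left out. It was 2597 without lean day 14 library 1, 2625 without obese day 14 library 5 and 7946 without obese day 14 library 1. The day 21 gene was AU018091, named after its value was seen, at 1.89 ± 0.27 log2 units (SE, edgeR adjusted p = 0.0190). It was not called without lean library 1, 2 or 5 or obese library 1, 3 or 5 of that day. Counts at the 2 days do not themselves show that the diet difference changed.

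The test of that change found 0 genes at an adjusted p of 0.05 with edgeR (0%), with a lowest adjusted p of 0.0983, although 5451 of 16352 genes (33.3%) had an unadjusted p under 0.05. Of these, 2416 had a positive (14.8%) and 3035 a negative interaction (18.6%), and 4818 of the 5451 had opposite signs at the 2 days. The count of calls depended on the tool and on 1 library. DESeq2 called 1681 of the 12539 genes it gave an adjusted p (13.4%, with 8.28% positive and 5.13% negative), and limma-voom with quality weights called 5119 (31.3%, with 17.6% positive and 13.7% negative), 1510 of them shared with the same sign. Without obese day 14 library 1, edgeR called 5656 genes (34.8%). In each of the other 17 fits with 1 library left out, it called 0. Without lean day 21 library 2, 3559 genes had an unadjusted p under 0.05, and with all 19 libraries 1040.

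The libraries differed in how strongly expression followed the GC content of the gene, and this trend had an interaction of its own. At day 14 lean libraries had a GC slope (the change in log2 CPM per 10 points of GC%) of 0.268 ± 0.177 (SD, n = 4), and obese ones of 0.987 ± 0.483 (n = 5). At day 21 it was −0.587 ± 0.36 (n = 4) and −0.732 ± 0.188 (n = 5). The difference of differences was −0.864, and a two-sided exact test that permuted lean and obese labels within each day, with 15876 splits, gave p = 0.0236, or 0.0472 adjusted over 2 measures. Without lean day 21 library 2, whose slope of −0.0701 was the nearest to 0 of that day, it was −0.6913 with an exact permutation p of 0.0595. Obese day 14 library 1, the library whose removal brought 5656 calls, had a slope of 0.341, within the lean range of 0.11 to 0.462.

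**Figure D1:**
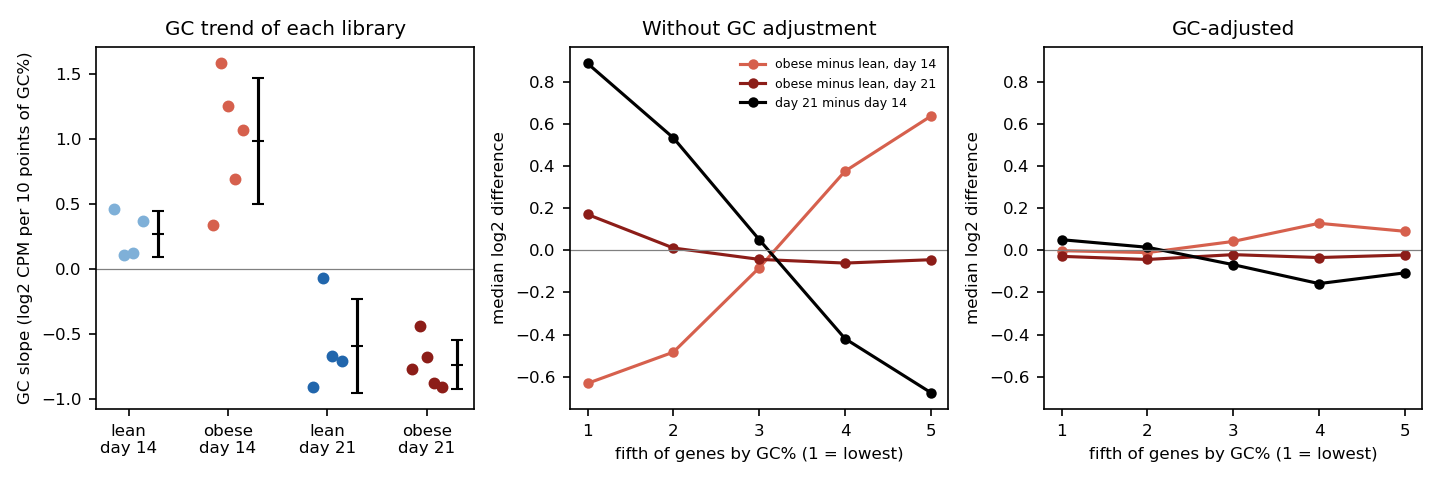
The left panel plots each library's GC slope (log2 CPM per 10 points of GC%), with the mean and SD of each group beside the points. The other panels plot median log2 differences in 5 equal groups of genes ordered by GC%: the interaction runs from 0.886 to −0.675 without GC adjustment and from 0.0502 to −0.107 with it.

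Genes of low and high GC content accordingly had opposite interactions. In the first of 5 equal groups of genes by GC content, the lowest, the median interaction was 0.886, from a median difference of −0.631 at day 14 and 0.17 at day 21. In the highest group it was −0.675, from 0.636 and −0.0447. Each library's GC trend was therefore fitted with a spline and removed, which left 16122 genes with a known GC content. What the GC trend reflects was not tested.

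With GC adjustment the interaction again gave 0 calls with edgeR (0%), with a lowest adjusted p of 0.0782. Unadjusted p-values under 0.05 were seen for 3689 genes (22.9%), 1108 positive (6.87%) and 2581 negative (16%). At day 14, 1842 genes were called (11.4%), 1290 higher (8%) and 552 lower (3.42%). Their number was 0 without the same 4 libraries as above, 818 without lean day 14 library 1, 870 without obese day 14 library 5 and 4155 without obese day 14 library 1. At day 21, 1 gene was higher (0.0062%), again AU018091, and 11 were called without lean day 21 library 5. The opposite-sign share was 52.9%, or 47.19% without lean day 21 library 2, and the standard deviations of the differences were 0.582 at day 14 and 0.401 at day 21. Without obese day 14 library 1 there were 1727 calls (10.8%), 483 positive (3.01%) and 1244 negative (7.76%); without lean day 21 library 5 there were 3. In all, 522 genes, 236 positive and 286 negative, were called with the same sign by limma-voom, by DESeq2 and by edgeR without obese day 14 library 1, with and without GC adjustment. DESeq2 and limma-voom were not run with GC adjustment. In the following, interactions are log2 values ± SE from edgeR over 18 libraries, and none passed an adjusted p of 0.05 unless a tool is named.

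**Figure D2:**
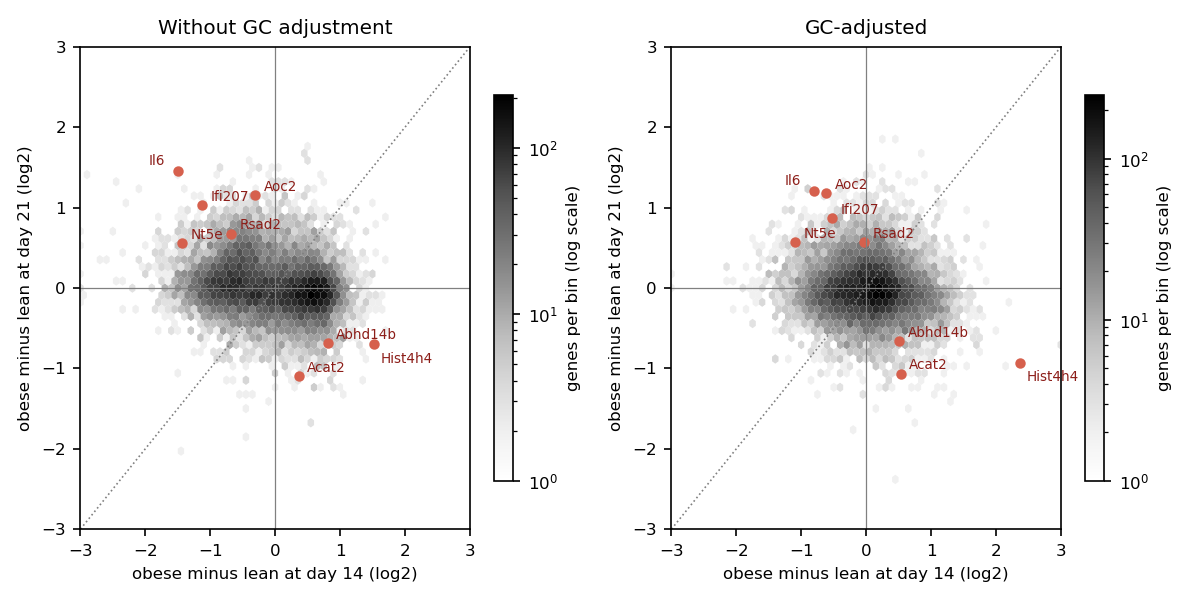
Each panel plots, for the genes tested, the obese minus lean log2 difference at day 14 against that at day 21, as genes per hexagon on a log scale; the dotted line marks equal differences. Values beyond 3 on either axis (31 genes without and 29 with GC adjustment) are drawn at the edge. Il6, Ifi207 and Aoc2 lie above, and Abhd14b, Acat2 and Hist4h4 below the line.

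Among genes with a positive interaction, Il6 had the smallest p. It encodes interleukin 6, an inflammatory cytokine (chromosome 5, 30013161 to 30019968, mm10, as are all coordinates of genes). Its level was 0.437, 0.555, 0.674 and 0.472 CPM in lean and 0.161, 0.0463, 0.293, 0.219 and 0.217 CPM in obese libraries at day 14. On day 21 the level was 2.24, 0.732, 1.27 and 1.52 CPM in lean and 3.07, 2.82, 3.53, 6.55 and 3.72 CPM in obese libraries. Lean and obese libraries did not overlap at either day, with the obese lower at day 14 and higher at day 21. After GC adjustment they overlapped at day 14, at 0.621 to 0.928 CPM in lean and 0.165 to 0.773 CPM in obese libraries. The interaction was 2.96 ± 0.53 (edgeR adjusted p = 0.0983), and 2.01 ± 0.45 GC-adjusted (edgeR adjusted p = 0.0782). The counts behind the obese day 14 values were 2 to 12 reads per library, so those levels are imprecise.

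The Il6 promoter is shown because NF-kappa B, the classical factor for inflammatory genes, is known to act there. The RefSeq window (GRCm38.p6, chr5:30012864-30013163, + strand) covers 250 bases before to 50 after the start. Capitals mark the motif GGGA, any base, TTTCC, 44 to 35 bases before the start.
Il6: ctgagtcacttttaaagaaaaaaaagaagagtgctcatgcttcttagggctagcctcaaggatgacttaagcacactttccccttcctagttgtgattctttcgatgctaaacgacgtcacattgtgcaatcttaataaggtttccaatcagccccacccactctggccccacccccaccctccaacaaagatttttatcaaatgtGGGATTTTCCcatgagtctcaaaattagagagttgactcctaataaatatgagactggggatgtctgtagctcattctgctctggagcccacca
This motif, sought on both strands, stood in 5 of 23 promoters of the inflammatory list and in 0.411% of all 32851 promoters. A match is a description of the letters.

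Nt5e, which encodes CD73, the surface enzyme that makes adenosine from AMP (chromosome 9, 88327609 to 88372089), was 21.7, 26.4, 35.5 and 29 CPM in lean and 18.8, 10, 10.1, 6.14 and 7.15 CPM in obese libraries at day 14. Day 21 gave 68.1, 31, 72.6 and 60.1 CPM in lean and 111, 56.6, 99.1, 75.7 and 83.1 CPM in obese libraries. The groups did not overlap at day 14 and overlapped at day 21. Its interaction was 1.98 ± 0.42, and 1.66 ± 0.37 GC-adjusted. Ifi207, a member of the interferon-inducible p200 family (chromosome 1, 173723430 to 173741809), had an interaction of 2.16 ± 0.47, and 1.40 ± 0.33 GC-adjusted. Ifi207 ranged from 21.2 to 30.5 CPM in lean and 5.51 to 22.2 CPM in obese libraries at day 14, then 24.7 to 51.8 and 48.8 to 101 CPM, so the groups overlapped at both days.

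Aoc2, a copper amine oxidase gene (chromosome 11, 101325063 to 101329702), overlapped between diets at day 14 by 1 obese library. It was 4.32, 4.37, 4.72 and 3.68 CPM in lean and 4.47, 3.43, 2.61, 3.2 and 3.54 CPM in obese libraries at day 14. The day 21 values were 2.21, 4.13, 2.52 and 4.35 CPM in lean and 7.3, 8.54, 6.68, 5.56 and 8.89 CPM in obese libraries, without overlap. Its interaction grew from 1.47 ± 0.32 to 1.80 ± 0.34 with GC adjustment, in which it had the smallest p of the positive genes (edgeR adjusted p = 0.0782). Lif, a cytokine of the interleukin 6 family, also overlapped at day 14 and was apart at day 21, with 3.39 to 7.96 CPM in lean and 3.97 to 5.61 CPM in obese libraries at day 14, and 4.64 to 7.66 against 9.42 to 14.4 CPM at day 21. The Lif interaction was 1.12 ± 0.32, and 1.34 ± 0.29 GC-adjusted. Mtmr7, a myotubularin-family gene, had 1.98 ± 0.43 and 1.60 ± 0.39, and Trim30d, of the TRIM family, 1.95 ± 0.46 and 1.06 ± 0.21.

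The leading genes with a negative interaction, given next, had an obese minus lean difference above 0 at day 14. Cavin1 encodes a coat protein of caveolae (chromosome 11, 100956733 to 100970887). It was 265, 219, 202 and 309 CPM in lean and 319, 507, 417, 326 and 418 CPM in obese libraries at day 14. By day 21 it was 297, 265, 226 and 226 CPM in lean and 177, 194, 166, 161 and 164 CPM in obese libraries. The groups did not overlap at either day, and the order was reversed. After GC adjustment Cavin1 overlapped at day 14, at 212 to 254 CPM in lean and 232 to 302 CPM in obese libraries. Its interaction was −1.23 ± 0.24, and −0.76 ± 0.19 GC-adjusted, with a day 14 difference that shrank from 0.68 to 0.20.

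Aif1l, an actin-binding protein gene (chromosome 2, 31950260 to 31973442), kept its size under the adjustment. It was 13.9, 13.9, 11.3 and 13.7 CPM in lean and 27, 26.6, 31, 20.3 and 22.7 CPM in obese libraries at day 14. At day 21 it was 11.2, 19.9, 18.6 and 10.6 CPM in lean and 10, 9, 11.9, 10.9 and 10 CPM in obese libraries. The groups were apart at day 14 and overlapped at day 21. The interaction was −1.50 ± 0.28, and −1.39 ± 0.25 GC-adjusted (edgeR adjusted p = 0.0782), and without lean day 21 library 5 the GC-adjusted value was −1.53 with an edgeR adjusted p of 0.0447.

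Abhd14b, an alpha/beta hydrolase gene (chromosome 9, 106448640 to 106452915), ranged from 14.5 to 23.3 CPM in lean and from 22.5 to 46.2 CPM in obese libraries at day 14. At day 21 it ranged from 11.7 to 19 and from 9.11 to 10.8 CPM, without overlap. Its interaction was −1.50 ± 0.30, and −1.18 ± 0.22 GC-adjusted; without lean day 21 library 5 the latter was −1.30 (edgeR adjusted p = 0.0447). Uap1l1, related to the enzyme that makes UDP-N-acetylglucosamine, had −1.44 ± 0.31 and −1.12 ± 0.22. Amotl2, an angiomotin of the Hippo pathway, had −1.23 ± 0.23 and −0.79 ± 0.24, since its day 14 difference fell from 0.51 to 0.10 with the adjustment. Ei24, a p53-induced endoplasmic reticulum protein gene, had −0.92 ± 0.22 and −1.04 ± 0.22.

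All 10 genes with the smallest p (5 of each sign) without GC adjustment passed an adjusted p of 0.05 by limma-voom (0.00724 to 0.0128) and by DESeq2 (3.37e-05 to 0.0128). With edgeR they passed without obese day 14 library 1, each at an adjusted p of 0.0149. The 10 with GC adjustment then passed at 0.0151 to 0.0211. These genes were picked by small p for the same contrast in the same libraries. Neither their passing nor a lack of overlap between groups is therefore separate evidence. Of all genes, limma-voom called 31.3% and DESeq2 13.4%. Without obese day 14 library 1 edgeR called 34.8%, and 10.8% GC-adjusted.

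**Figure D3:**
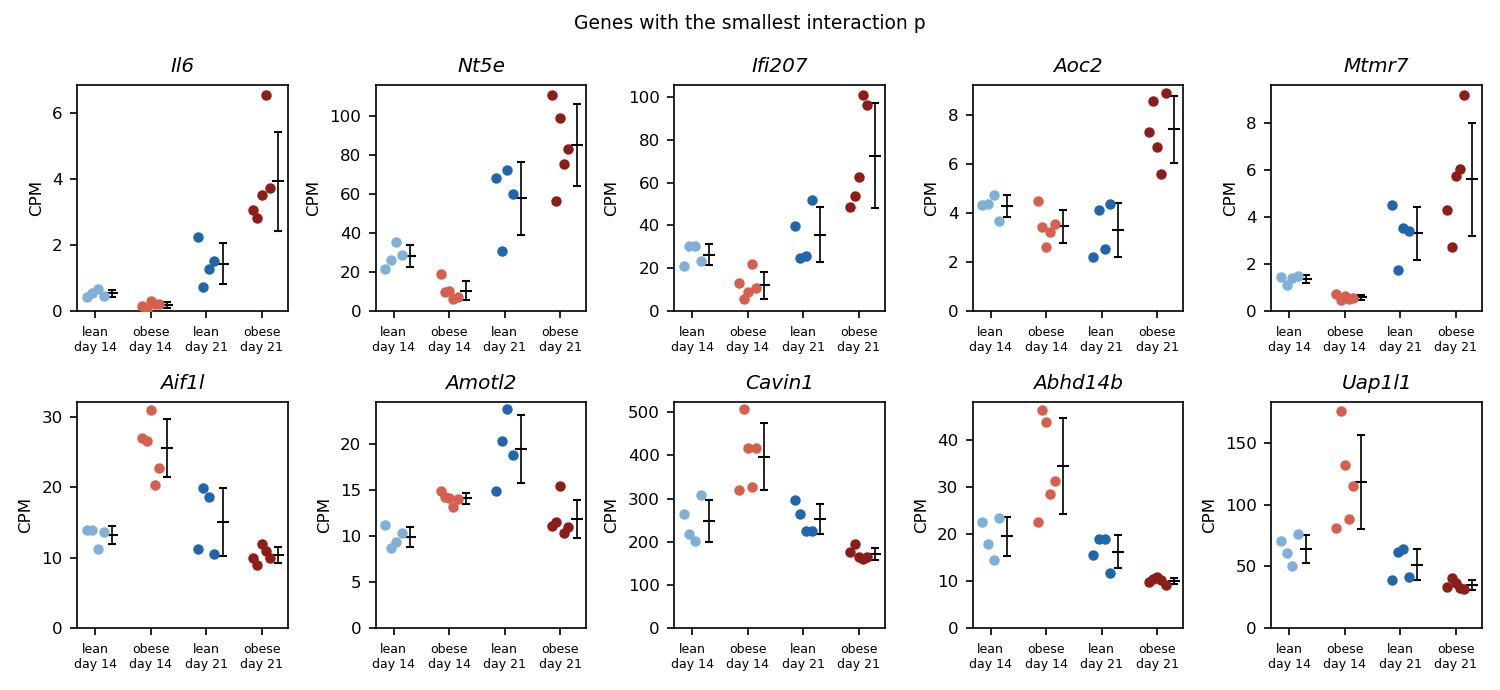
CPM per library of the 10 genes with the smallest interaction p without GC adjustment, the upper row positive and the lower negative, with the mean and SD of each group (n = 4 or 5) beside the points. Il6 and Cavin1 are the genes of these 10 in which lean and obese libraries do not overlap at either day in these values. Both overlap at day 14 after GC adjustment.

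Few genes had an obese minus lean difference of opposite sign with an unadjusted p under 0.05 at each day: 145 of 16352, 51 of them higher in obese libraries at day 21 and 94 at day 14. Over all genes, 45.9% had such a p at day 14 and 4.89% at day 21. With GC adjustment the numbers were 176, 35 and 141, beside 31.8% at day 14 and 7.85% at day 21, of which 4.68% of genes were lower in obese libraries. The genes given here were chosen after their values were seen. Lpl, which encodes the lipase that releases fatty acids from lipoproteins, was −1.63 at day 14 and 1.39 at day 21. Its day 21 value leaned on obese library 4, at 12.4 CPM against 1.14 to 2.92 CPM in the others, and its interaction of 3.02 ± 0.90 was 1.99 without that library (2.32 ± 0.81 and 1.34 GC-adjusted). That library was the highest of all in mean macrophage marker level, at 5.09 log2 CPM; macrophages express Lpl, and their part in its value was not tested. Aqp1, a water channel gene, was 0.90 and −1.58, with an interaction of −2.48 ± 0.56 and −2.14 ± 0.54 GC-adjusted. Aqp1 was 4.01 to 8.31 CPM in lean and 9.59 to 15.4 CPM in obese libraries at day 14, without overlap. The groups overlapped at that day after GC adjustment. On day 21 the unadjusted Aqp1 level was 3.72 to 22.8 and 1.99 to 6.03 CPM. Myh10, a nonmuscle myosin gene, was −0.98 and 0.86, with 1.83 ± 0.49 and 1.90 ± 0.49.

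The short noncoding RNAs with large negative interactions rested in part on lean day 21 library 1. Rny1, a Y RNA of the Ro particle, was 10.1 CPM there against 1.33 to 2.1 CPM in the other lean and 0.18 to 1.09 CPM in the obese libraries of that day. Its interaction was −3.63 ± 0.81, and −2.44 without that library; GC-adjusted the values were −4.51 and −3.63. For Rnu3a, a U3 RNA gene, they were −3.50 and −1.73, and for Rny3, another Y RNA, −2.70 and −1.32. At day 14, obese library 2 was the highest of its group. It had Rny1 at 10.1 CPM against 2.39 to 5.07 CPM in the other obese libraries. Rnu3a was 14.5 against 3.01 to 5.42 CPM, and Rny3 6.46 against 1.86 to 3.63 CPM.

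The pathway lists were set beside all genes, whose median interaction was 0.00477, and −0.0664 GC-adjusted. Each list described was among the 4 farthest above or the 4 farthest below that median in at least 1 of the fits. Beyond the adjusted p, members are counted at an unadjusted p under 0.05. Over all genes that p was met by 14.8% with a positive and 18.6% with a negative interaction, and by 6.87% and 16% GC-adjusted.

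By their median, interferon-stimulated genes were lower in obese libraries at day 14 and higher at day 21. Their median difference was −0.555 at day 14 and 0.368 at day 21 over 39 genes, and the median interaction was 1.04, with 18 members positive and 0 negative at an unadjusted p under 0.05, against 14.8% and 18.6% of all genes. With GC adjustment the medians were −0.251, 0.37 and 0.66, with 11 positive (6.87% of all genes) and 0 negative; without lean day 21 library 3 the last median was 0.4394. At day 21, 36 of 39 members were above 0 in both fits. That difference leaned in part on lean library 3, whose list mean was 4.52 log2 CPM without GC adjustment. The other lean libraries of that day lay at 5.52 to 6 and the obese ones at 5.83 to 6.31, so the groups overlapped. limma-voom called 21 members and DESeq2 13, all positive. Without obese day 14 library 1 edgeR called 20, and 3 GC-adjusted.

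Rsad2, the antiviral enzyme viperin, was 42.1, 76, 73.9 and 49.3 CPM in lean and 41.4, 30.7, 37.5, 51.4 and 27.5 CPM in obese libraries at day 14. Day 21 gave 171, 89, 85.9 and 157 CPM in lean and 170, 164, 153, 299 and 218 CPM in obese libraries. The groups overlapped at both days. Its interaction of 1.36 ± 0.37 became 0.60 ± 0.28 with GC adjustment, since the day 14 difference went from −0.68 to −0.03. Mx2, of the Mx family of antiviral GTPases, is annotated as a polymorphic pseudogene, so its transcript need not make a working enzyme. It was 6.75, 11.4, 8.39 and 6.38 CPM in lean and 6.29, 5.23, 3.39, 8.09 and 4.42 CPM in obese libraries at day 14. The day 21 values were 8.95, 9.01, 5.53 and 8.12 CPM in lean and 11.7, 12.9, 10.8, 13.8 and 12.8 CPM in obese libraries. Mx2 did not overlap at day 21, and its interaction was 1.23 ± 0.33, and 1.27 ± 0.32 GC-adjusted. Ddx58, the RNA sensor RIG-I, had 1.57 ± 0.44 and 1.11 ± 0.33, and Mx1 1.20 ± 0.32 and 0.76 ± 0.26.

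The promoters of Rsad2 (chromosome 12, minus strand) and Ddx58 (chromosome 4, minus strand) are shown for the interferon-stimulated response element. The windows are chr12:26456403-26456702 and chr4:40239776-40240075 of GRCm38.p6, from RefSeq. Capitals mark the motif GAAA, any 2 bases, GAAA, here read on the reverse strand, 120 to 111 bases before the start of Rsad2 and at bases 3 to 12 after the start of Ddx58.
Rsad2: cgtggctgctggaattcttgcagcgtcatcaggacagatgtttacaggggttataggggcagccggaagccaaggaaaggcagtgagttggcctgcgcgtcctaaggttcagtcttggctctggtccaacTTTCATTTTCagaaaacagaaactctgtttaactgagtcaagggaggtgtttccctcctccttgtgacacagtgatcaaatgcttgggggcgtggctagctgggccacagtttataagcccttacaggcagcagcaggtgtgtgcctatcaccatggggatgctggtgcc
Ddx58: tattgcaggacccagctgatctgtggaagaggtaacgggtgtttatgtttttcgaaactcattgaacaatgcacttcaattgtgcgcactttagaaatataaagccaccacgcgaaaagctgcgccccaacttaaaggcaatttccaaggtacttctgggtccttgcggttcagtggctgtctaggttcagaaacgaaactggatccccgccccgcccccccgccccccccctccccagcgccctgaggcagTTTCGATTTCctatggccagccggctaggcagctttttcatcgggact
The motif stood in 19 of 36 promoters that matched 31 of the 39 genes, and in 3.44% of all promoters.

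Macrophage markers also had a median below 0 at day 14. All 18 were tested and none was at 0 throughout; summed, they ranged from 325 to 791 CPM in lean and 257 to 431 CPM in obese libraries at day 14, and from 190 to 443 and 157 to 800 CPM at day 21. Their median interaction was 1.02, and 1.01 GC-adjusted. At an unadjusted p under 0.05, 6 of 18 were positive and 0 negative, against 14.8% and 18.6% of all genes. GC-adjusted, 4 were positive and 0 negative, against 6.87% and 16% of all genes. The median difference of the macrophage markers was −0.84 at day 14 and 0.04 at day 21. The 10 pan-leukocyte markers had a median interaction of 0.588, and 0.909 GC-adjusted. Medians were also positive for dendritic (1.04 and 0.698), NK (0.665 and 0.498), neutrophil (0.547 and 0.106) and B cell markers (0.321 and 0.672). They were negative for MHC class II genes (−0.277 and −0.111) and T cell markers (−0.269 and −0.517). MHC class I antigen presentation genes had −0.345 and −0.0169. The part of leukocyte RNA in the interferon and cytokine values was not tested.

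Inflammatory cytokines and acute phase genes had a median interaction of 0.654 over 25 genes, with 9 positive and 0 negative at an unadjusted p under 0.05. With GC adjustment it was 0.244, with 4 and 0. Beyond Il6 and Lif, Tnfaip3, the NF-kappa B inhibitor A20, was 0.99 ± 0.31 and, GC-adjusted, 0.48 ± 0.32. Ptgs2, the cyclooxygenase 2 gene, was 1.15 ± 0.37 and 0.11 ± 0.31. DESeq2 called 7 members and limma-voom 5, all positive; for limma-voom this share is near the 17.6% of all genes that it called positive. Without lean day 14 library 3 the median was 0.2648, and 0.1229 GC-adjusted. Without lean day 21 library 1 it was 0.9248, and 0.4951 GC-adjusted.

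Cholesterol synthesis genes and SREBP2 targets lay lower in obese libraries at day 21 and were mixed at day 14. All 25 had a difference below 0 at day 21 in both fits, with a median of −0.603, and 15 had an unadjusted p under 0.05 (2.61% of all genes were lower and 2.29% higher at that p). At day 14, 14 were above and 11 below 0, with a median of 0.231. The median interaction was −0.612, with 13 negative and 0 positive at an unadjusted p under 0.05, against 18.6% negative over all genes. With GC adjustment it was −0.597, with 15 negative (16% of all genes), and all 25 interactions were below 0. limma-voom called 13 and DESeq2 7 members, all negative. Without obese day 14 library 1 edgeR called 12 negative and 1 positive, and 7 negative GC-adjusted.

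Acat2, the cytosolic acetoacetyl-CoA thiolase that starts the pathway (chromosome 17, 12942890 to 12960747), was 63.5, 46.2, 39.3 and 91.7 CPM in lean and 68.4, 74.6, 68.8, 51.5 and 124 CPM in obese libraries at day 14. By day 21 it was 50.8, 51.3, 35.2 and 37.1 CPM in lean and 24.1, 27.3, 21.9, 15.7 and 13.2 CPM in obese libraries. The groups overlapped at day 14 and were apart at day 21. The interaction was −1.46 ± 0.39, and −1.60 ± 0.40 GC-adjusted. Pmvk, the mevalonate pathway kinase (chromosome 3, 89459118 to 89469013), was 69.3, 53.5, 45.4 and 93.5 CPM in lean and 72.2, 114, 99.1, 67.3 and 121 CPM in obese libraries at day 14. At day 21 it was 44.6, 56.4, 44 and 40.3 CPM in lean and 26.2, 34, 23.5, 25.3 and 19.2 CPM in obese libraries. Pmvk too overlapped at day 14 and was apart at day 21, with −1.39 ± 0.32 and −0.93 ± 0.24. Dhcr7, whose enzyme makes cholesterol in the last step of its branch, had −1.27 ± 0.31 and −1.07 ± 0.26.

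The promoters of Pmvk and Acat2 are shown because SREBP2 acts together with NF-Y, which binds CCAAT. The Pmvk window, chr3:89454291-89454590 on the + strand of GRCm38.p6, belongs to a RefSeq start upstream of the start in the count table. CCAAT, in capitals, lies 136 to 132 bases before it. The Acat2 window, chr17:12960676-12960975 on the minus strand, holds no such letters on either strand.
Pmvk: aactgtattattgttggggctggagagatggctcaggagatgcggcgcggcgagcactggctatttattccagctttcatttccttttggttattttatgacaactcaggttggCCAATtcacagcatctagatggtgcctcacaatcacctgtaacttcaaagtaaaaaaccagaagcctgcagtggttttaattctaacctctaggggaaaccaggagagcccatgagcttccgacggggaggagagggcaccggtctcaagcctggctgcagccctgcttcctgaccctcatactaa
Acat2: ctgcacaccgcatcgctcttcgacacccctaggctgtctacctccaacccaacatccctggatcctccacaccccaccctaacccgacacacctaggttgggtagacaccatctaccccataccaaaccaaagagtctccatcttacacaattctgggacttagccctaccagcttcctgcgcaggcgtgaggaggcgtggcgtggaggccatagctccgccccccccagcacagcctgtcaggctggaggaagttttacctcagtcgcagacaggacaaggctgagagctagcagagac
CCAAT stood in 16 of 20 promoters that matched 17 of the 25 genes, and in 37.4% of all promoters.

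Nuclear oxidative phosphorylation subunits were higher in obese libraries at day 14 and near 0 at day 21. Over 78 genes the median difference was 0.566 at day 14, where 48 were called higher and 1 lower (16.7% and 12.8% of all genes), and −0.0954 at day 21. The median interaction was −0.64, with 48 negative and 1 positive at an unadjusted p under 0.05. With GC adjustment it was −0.602, with 54 and 1. limma-voom called 36 negative and 2 positive, and DESeq2 10 negative. Without obese day 14 library 1 edgeR called 38 negative, and 33 GC-adjusted.

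Ndufv1, a flavoprotein subunit of complex I, was 83.5, 66.5, 68.7 and 104 CPM in lean and 93.5, 214, 192, 107 and 134 CPM in obese libraries at day 14. On day 21 the level was 53.4, 66.1, 55.3 and 54.4 CPM in lean and 50.7, 58.1, 54.9, 52.7 and 40.5 CPM in obese libraries. Obese day 14 libraries 2 and 3 were the highest, and the groups overlapped at both days. Its interaction was −1.03 ± 0.31, and −0.53 ± 0.17 GC-adjusted. Cox7a2l, a respiratory supercomplex factor, went the other way with the adjustment, from −1.02 ± 0.27 to −1.16 ± 0.28. Ndufa8 and Ndufb10, also of complex I, had −0.93 ± 0.25 and −0.99 ± 0.30, and −0.59 ± 0.17 and −0.68 ± 0.21 GC-adjusted.

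Replication-dependent histones had the lowest median interaction of the lists without GC adjustment. It was −1.43 over 44 genes, all of them below 0, with 35 negative and 0 positive at an unadjusted p under 0.05. The median difference was 1.21 at day 14, with 33 called higher, and −0.237 at day 21. With GC adjustment the median interaction was −1.01, with 27 negative and 0 positive. limma-voom called 28, DESeq2 13, and edgeR without obese day 14 library 1 called 30, and 11 GC-adjusted, all negative.

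Hist2h4 was 64.5, 66.2, 70.3 and 121 CPM in lean and 143, 354, 289, 93.5 and 176 CPM in obese libraries at day 14. Day 21 gave 57.8, 105, 65.5 and 64 CPM in lean and 48.3, 66.2, 61.2, 46.5 and 48.9 CPM in obese libraries. Obese libraries 2 and 3 were the highest at day 14, as for Ndufv1, and lean library 4 overlapped the obese group. Its interaction was −1.83 ± 0.44, and −1.83 ± 0.43 GC-adjusted. Hist4h4 had −2.22 ± 0.53 and −3.30 ± 0.71, and Hist1h1a, a linker histone, −1.53 ± 0.39 and −1.16 ± 0.29. Histone genes are near-identical copies, so their reads may be split between members, and their messages depend on how RNA was selected. By comparison the median interaction of 29 DNA replication genes was −0.339, and −0.276 GC-adjusted, and that of 20 mitosis genes 0.315 and 0.173.

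**Figure D4:**
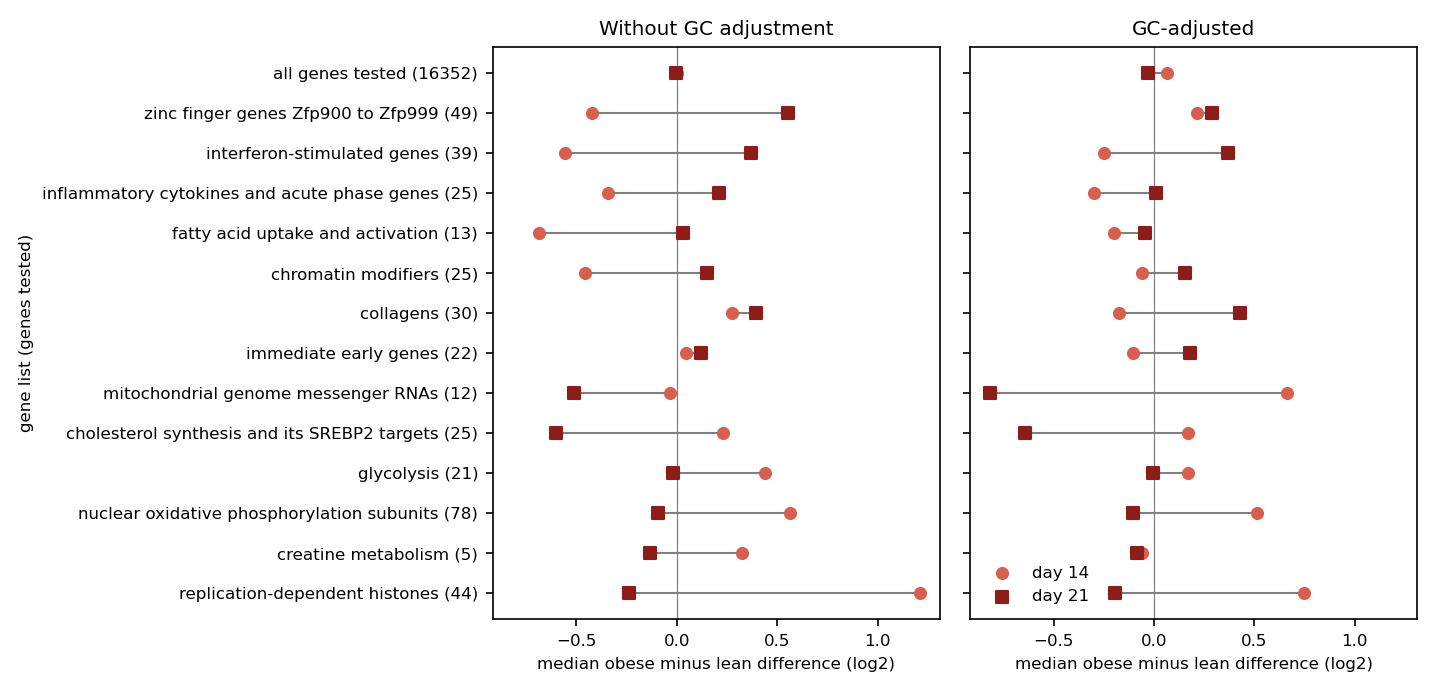
Median obese minus lean log2 difference of each list at day 14 (circles) and day 21 (squares), without and with GC adjustment, with the number of genes tested. The distance between the marks is large in both panels for interferon-stimulated genes, cholesterol synthesis, oxidative phosphorylation and histones, and small with GC adjustment for zinc finger genes and creatine metabolism.

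All 12 messenger RNAs of the mitochondrial genome had a day 21 difference below 0 in both fits, while their day 14 median depended on the GC adjustment. Without it the day 21 difference leaned on lean library 1, whose list mean was 7.83 log2 CPM. The other lean libraries of that day lay at 6.35 to 6.55 and the obese ones at 6.18 to 6.56, so these overlapped. The median difference of the list was −0.0353 at day 14 and −0.512 at day 21 without GC adjustment, and 0.66 and −0.815 with it. The median interaction was −0.28, with 2 of 12 negative at an unadjusted p under 0.05, a share no higher than the 18.6% of all genes. Without lean day 21 library 1 the median interaction turned to 0.3852. With GC adjustment it was −1.42, with 9 negative, and −1.14 without that library. mt-Nd1, a complex I subunit gene, was 3770, 2460, 3600 and 2600 CPM in lean and 3270, 6480, 3620, 3860 and 4770 CPM in obese libraries at day 14. The day 21 values were 9640, 3440, 3790 and 3090 CPM in lean and 3050, 2500, 3370, 2340 and 2750 CPM in obese libraries. Its interaction of −1.34 ± 0.40 was −0.72 without lean library 1, and the GC-adjusted values were −2.47 ± 0.53 and −2.23. The mitochondrial share of counts had an interaction of −1.10 percentage points (exact two-sided permutation p = 0.956), and of 4.968 without lean day 21 library 1 (p = 0.0553 in the same exact test).

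**Figure D5:**
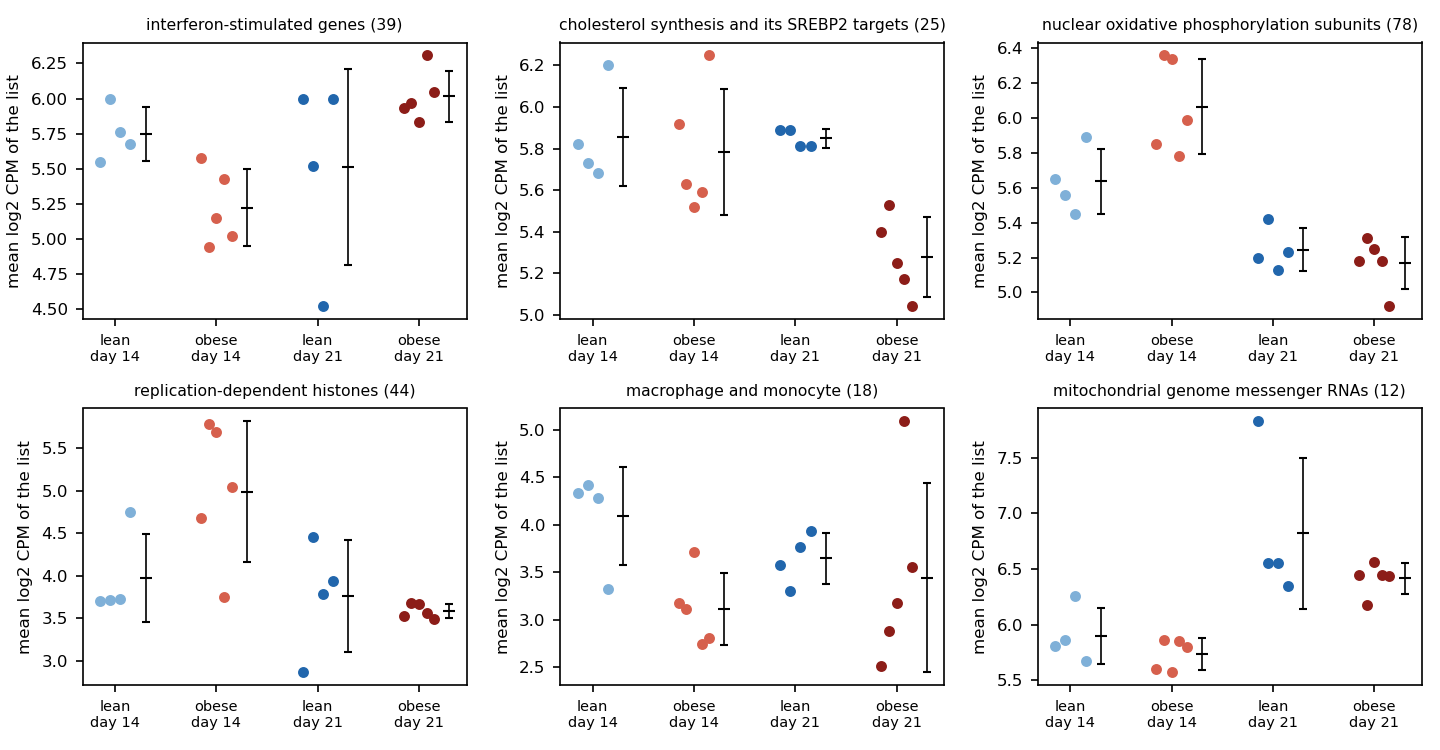
Mean log2 CPM over the genes of 6 lists in each library, without GC adjustment, with the mean and SD of each group. The cholesterol list lies at 5.04 to 5.53 in obese and 5.81 to 5.89 in lean libraries at day 21, lean day 21 library 3 is low in interferon-stimulated genes at 4.52, and lean day 21 library 1 is high in mitochondrial messenger RNAs at 7.83.

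Collagens had a larger median interaction with the adjustment. Their median was 0.297 over 30 genes, with 4 positive and 3 negative at an unadjusted p under 0.05, both below the 14.8% and 18.6% of all genes. It was 0.1262 without lean day 14 library 2 and 0.08425 without obese day 21 library 5. With GC adjustment it was 0.673, with 10 positive and 0 negative, against 6.87% and 16% of all genes. The GC-adjusted median difference was −0.172 at day 14 and 0.429 at day 21. Col5a2, a fibrillar collagen gene, was 1.26, 0.675, 0.726 and 0.468 CPM in lean and 1.07, 1.75, 2.35, 2.65 and 1.49 CPM in obese libraries at day 21. The groups overlapped there by 1 lean library. At day 14 it was 1.76 to 2.68 CPM in lean and 1.44 to 3.68 CPM in obese libraries. Its interaction was 1.12 ± 0.47, and 1.01 ± 0.43 GC-adjusted. Col12a1 had 1.23 ± 0.48 and 0.96 ± 0.46. The collagens with the smallest p without GC adjustment, at a mean of at least 1 CPM, were Col4a2 and Col7a1, and both were negative. Col4a2 had −0.81 ± 0.28, and −0.18 ± 0.18 GC-adjusted. Col7a1 had −1.08 ± 0.39 and −0.35 ± 0.28. The 11 fibroblast markers had a median interaction of 0.741, and 0.139 GC-adjusted, and their summed level was 1140 to 2790 CPM in lean and 1730 to 2930 CPM in obese libraries at day 21. Their part in the collagen values was not tested.

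Immediate early genes also had a larger median with the adjustment, 0.372 against 0.0198 over 22 genes. With it, 6 were positive and 0 negative at an unadjusted p under 0.05, against 6.87% and 16% of all genes. Without it, 4 were positive and 2 negative, against 14.8% and 18.6% of all genes, so the positive share was near that of all genes. Egr2, a zinc finger factor, had 1.74 ± 0.54 and 1.82 ± 0.53. Btg2, an antiproliferative gene, had 1.12 ± 0.35 and 0.99 ± 0.32. Klf2, of high GC content, went from −1.003 ± 0.31 to −0.30 ± 0.20. Chromatin modifiers had a median of 0.572, and 0.313 GC-adjusted, over 25 genes. At an unadjusted p under 0.05, 6 were positive and 0 negative, against 14.8% and 18.6% of all genes. GC-adjusted, 1 was positive and 0 negative, a positive share no higher than the 6.87% of all genes. Without obese day 14 library 1 edgeR called 8 positive and 1 negative, and 0 GC-adjusted. Without obese day 21 library 5 the medians were 0.3057 and 0.1535, and the GC-adjusted one was 0.1419 without lean day 21 library 2. Kdm5b, a histone demethylase gene, had 0.96 ± 0.34 and 0.58 ± 0.26.

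Zinc finger genes, glycolysis, fatty acid uptake and creatine metabolism were among the farthest lists without GC adjustment and not with it. The 49 zinc finger genes Zfp900 to Zfp999, whose median GC content of 38.5% was far below the 49.9% of all genes, went from 1.07 to 0.088. Their positive members went from 18 to 3, beside 14.8% and then 6.87% of all genes. Glycolysis went from −0.633 to −0.182 over 21 genes, with 9 negative members and then 5, beside 18.6% and 16% of all genes. Its smallest p belonged to Pfkm, a phosphofructokinase gene, with −0.83 ± 0.25 and −0.48 ± 0.16. Fatty acid uptake and activation went from 0.618 to 0.107 over 13 genes; Slc27a4, a fatty acid transporter gene, had −0.96 ± 0.35 and −0.41 ± 0.20. Creatine metabolism went from −0.709 to 0.0469 over 5 genes, and the first value was −0.3766 without lean day 21 library 2. Slc6a8, the creatine transporter gene, was −0.89 ± 0.25 and −0.40 ± 0.18, while Gatm, which makes the creatine precursor, was 1.56 ± 0.58 and 0.89 ± 0.41.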

How the data were processed

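Read counts per gene were deposited by the authors in 1 table; TopHat, DESeq and mm10 are named in the submitters' processing notes, without roles, and how reads were counted, with which annotation and strand setting, is not given in the sources used here. Other columns of the deposited table give gene length and position.

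Counts of 18 libraries were fitted with edgeR 4.0.16 (R 4.3.3; TMM, filterByExpr, quasi-likelihood test, 4 group means, Benjamini-Hochberg adjustment). The GC adjustment used offsets from a natural spline (5 df) per library on the GC% of the longest GENCODE transcript. limma 3.58.1 (voom with quality weights) and DESeq2 1.42.0 were alternatives, beside other filters, splines, scalings, a replicate block and leaving out each library. The fits were tested on simulated data. CPM uses TMM-scaled library sizes. Promoters came from RefSeq.

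Replicate pairs of a group differed by a chi-square of at least 35.73 per degree of freedom, so none was counted as 1 sample. Cells of each tumour were processed separately, per the labels.

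Named genes were, at a mean of at least 1 CPM, the 5 of each sign with the smallest interaction p in each fit, since none passed, and the 4 with the smallest p in each described list. Reversing genes were added after their values were seen. The members and lists were chosen with earlier results of these data known. Unplaced Gm, Rik and pseudogene entries were skipped, and some results that this rule gives are not reported here.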

Additional observations from a re-analysis of the deposited data

Results flagged for a closer look

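The obese minus lean GC slope differed between days by −0.864 log2 CPM per 10 points of GC%. Among 296 combinations of a group with a named gene, the GC slope or the mitochondrial share, 15 held 1 library far from the others by Dixon's test, where about 15 are expected at 1 in 20. In lean day 14 libraries these were, in log2 CPM, Mtmr7 at 0.2 and Aqp1 at 2.02 (libraries 2 and 3), Aif1l at 3.5 (library 3), Abca8a at 1.46 (library 1), and Hist2h4 at 6.91, Cd36 at 0.205 and Egr2 at 0.132 (library 4). In lean day 21 libraries they were mt-Nd6 at 11 and Rnu3a at 4.81 (library 1), and Ndufv1 at 6.05 and Setd2 at 5.47 (library 2). In obese day 21 libraries they were Pfkfb4 at 3.14 (library 1), Amotl2 at 3.95 (library 3), and Rny1 at −2.2 and Rnu3a at −0.631 (library 4). For mt-Nd6, the other lean day 21 libraries lay between 7.51 and 7.6.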

How the results depend on the processing

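Genes past the threshold for the interaction numbered 0 to 5656 without GC adjustment and 0 to 1727 with it when 1 library was left out, 5119 with limma-voom and 1681 with DESeq2. Day 14 counts ranged from 0 to 7946, and 0 to 4155 GC-adjusted, with 1 library left out. They were 8458 with limma-voom, 0 with all 19 libraries, and, GC-adjusted, 922 with low counts unfiltered and 1 with the replicate block. Day 21 counts ranged from 0 to 1, and 1 to 11 GC-adjusted, with 1 library left out. They were 13 with DESeq2, 0 with limma-voom, with all 19 libraries and with the replicate block, and, GC-adjusted, 2 with no filter and 0 with the replicate block. The cause was not tested.

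Same-numbered libraries were, as a set, no more alike than others. Their correlations ran from −0.403 to 0.551 with a median of −0.0387, and 6 of 24 were over 0.1. Those of other-numbered libraries ran from −0.498 to 0.371 with a median of 0.0126, and 27 of 97 were over 0.1. The highest, 0.551, was between lean and obese library 2 of day 21. The replicate block gave 0 interaction calls in both fits, with lowest adjusted p-values of 0.113 and 0.134 among the leading genes.

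The GC slope difference ranged from −1.025 to −0.6913 with 1 library left out. The mitochondrial share interaction ranged from −4.232 to 4.968. Of the named genes, GC-adjusted Ckb was −0.1177 with no filter, −0.1936 with the replicate block and −0.4703 to 0.2251 with 1 library left out. A filter of 5 CPM gave Gamt 0.05289 and Jund 0.07851. Splines for GC and length gave Acsl6 −0.05606, Zfp945 −0.03521 and Kdm6a −0.05349. With 1 library left out, GC-adjusted Gamt ranged from −0.1333 to 0.111, Jund from −0.1889 to 0.0187, Kdm6a from −0.0524 to 0.2689 and Ptgs2 from −0.03831 to 0.2517. Without adjustment mt-Cytb ranged from −0.6868 to 0.03135 and mt-Nd6 from −1.649 to 0.5311. With 1 library left out, the medians of the described lists kept their sign, apart from mitochondrial messenger RNAs without adjustment (−0.4112 to 0.3852) and, GC-adjusted, creatine metabolism (−0.1058 to 0.2251) and zinc finger genes (−0.08675 to 0.1756).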

Other observations

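Several lists that were not among those farthest from all genes also had negative medians in both fits. Mitochondrial ribosomal proteins had a median interaction of −0.554 over 76 genes, and −0.527 GC-adjusted. At an unadjusted p under 0.05, 37 and 41 were negative, against 18.6% and 16% of all genes. Cytoplasmic ribosomal proteins had −0.545 and −0.515 over 83 genes, and proteasome subunits −0.407 and −0.503 over 37. Fatty acid oxidation had −0.427 and −0.498 over 20 genes. The spliceosome went from −0.277 to −0.468 over 33 genes, with 7 and 18 negative. The 7 without adjustment are near the 18.6% share of all genes, and the 18 GC-adjusted stand against 16%. The 16 heat shock proteins stood at 0.019 and 0.0947.

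The 5 erythroid markers that were tested had a median interaction of 1.47, and 1.74 GC-adjusted. All 5 were higher in obese libraries at day 21 at an unadjusted p under 0.05, against 2.29% of all genes. The summed level of the erythroid markers was 2.34 to 14 CPM in obese and 0.785 to 3.54 CPM in lean libraries at that day.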
